A study of Mus musculus with 9 samples.

Results

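Glycolysis and the hypoxia response were examined through 36 genes, of 22068 listed, in mouse embryonic fibroblasts (MEFs) that carried an ectopic *CRX* gene. The 36 were chosen by name, as the enzymes and transporters that take glucose to lactate and as further known targets of the hypoxia inducible factors (HIF), and all 36 were found. MEFs are connective tissue cells cultured from mouse embryos. These were primary C57Bl/6 cells at passage 2, electroporated with a plasmid that held V5-tagged human *CRX* (eutherian CRX), V5-tagged opossum *CRX* (metatherian CRX) or no homeobox gene (control). Each condition has 3 libraries. All 3 plasmids also carried a puromycin resistance gene, and all cells, controls included, spent 5 days in puromycin. The sample labels give 48 h of recovery after that selection, whereas the study's methods place 48 h of recovery before it and an overnight culture after it. The cells are a pool that survived selection, and the fibroblast setting lacks the embryonic and retinal context in which *CRX* normally acts. Poly(A) RNA was sequenced. The study's methods state a harvest of RNA in triplicate for each of the conditions. No source used here says whether the 3 libraries of a condition came from separate electroporations, so that p-values measure the spread between these libraries, which may be technical.

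Glycolysis splits glucose into pyruvate in the cytosol and yields ATP without oxygen, and lactate dehydrogenase turns the pyruvate into lactate. When oxygen is scarce, HIF prolyl hydroxylases stop marking HIF-1α for destruction, and HIF binds the core letters ACGTG or GCGTG in DNA and raises many glycolytic genes together with genes of blood vessel growth, pH control, mitochondrial turnover and collagen modification. Fast dividing cells such as cultured fibroblasts use glycolysis heavily also in the presence of oxygen. CRX is a homeodomain protein that binds letters such as TAATCC and is known for its part in photoreceptors.

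The libraries held 54145701 to 94699657 counts. Mouse *Crx* had 627, 995 and 313 counts in eutherian CRX replicates 1, 2 and 3, 0 counts in the 3 control libraries, and 4, 0 and 0 counts with metatherian CRX, so that the table shows the human transgene only as far as its reads match the mouse gene and does not check the opossum transgene. All 8 fibroblast markers listed had counts in every library. The summed level of these 8 lay at 38580 to 39990 CPM (counts scaled to a common library size) in control, at 34220, 31130 and 18260 CPM in eutherian CRX replicates 1, 2 and 3, and at 42110, 42500 and 22040 CPM in metatherian CRX replicates 1, 2 and 3. *Fn1* alone gave 26110 and 28450 CPM of this sum in metatherian CRX replicates 1 and 2, beside 15600 to 18130 CPM in control. Of the 8 markers, 7 lay lower with eutherian CRX and 6 with metatherian CRX, with median log2 fold changes of -0.41 and -1.02, and 3 and 5 of them were lower at an unadjusted p under 0.05 (edgeR), against 6.34% and 10.5% of all genes. Relative to the control mean, the median marker lay at log2 differences of -0.06, -0.17 and -1.18 in the eutherian CRX libraries and of -0.61, -0.87 and -0.75 in the metatherian ones, both in the order of their numbers. *Col1a1*, a collagen gene, had -1.70 and *Dcn*, which encodes decorin, -1.99 with metatherian CRX, whereas *Pdgfra* had 0.58. The 6 macrophage and leukocyte markers in the table, all but *Emr1* with counts in every library, had a summed level of 13.9 to 42.8 CPM in control, 8.34 to 25.1 CPM in the eutherian CRX libraries and 6.66 to 13.4 CPM in the metatherian CRX libraries. The 6 epithelial markers, of which *Krt8* was at 0 in 5 libraries, summed to 7.78 to 16.4 CPM, 8.57 to 31.4 CPM and 18.7 to 26.2 CPM in the same order. The 5 skeletal muscle markers summed to 15.4 to 38.0 CPM in 8 libraries and 110 CPM in control replicate 3, with *Myod1* at 0 in 8 libraries and *Myog* in 7. Of the 110 CPM, *Acta1* alone gave 97.9 CPM. The 5 endothelial markers summed to 12.0 to 20.0 CPM and the 5 erythroid markers to 0.233 to 0.466 CPM, with *Hba-a1* and *Hbb-bt* at 0 in all 9 libraries. The part of these markers in the results was not tested, and in bulk RNA fewer cells of a type and less RNA per cell cannot be told apart. The libraries numbered 3 stood apart. Over the 10100 genes tested, the log2 difference between replicates 3 and 1 had an SD of 0.551 in control, 0.850 for eutherian CRX and 0.553 for metatherian CRX, where that between replicates 2 and 1 had an SD of 0.243, 0.148 and 0.254. Results are therefore also given without the 3 libraries numbered 3.

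The promoters of 34 of the 36 genes were matched in RefSeq (GRCm38.p6), as windows from 250 bases before to 50 bases after the start. *Ndrg1* and *Bnip3l* had none in the table. On either strand, ACGTG or GCGTG was found in 27 of the 34 windows (79.4%), in 43.8% of all 32851 promoter windows of that length and in 66.2% of the windows of 7767 tested genes. TAATCC was found in 3 of the 34 (8.82%), namely *Pfkp*, *Aldoc* and *Pfkfb4*, in 7.06% of all windows and in 5.06% of those of tested genes. Neighbouring matches on both strands can overlap in the palindrome CACGTG. A match describes the letters and is not a binding site, and binding was not measured. The 250 bases before the start are printed for the 5 genes with the smallest unadjusted p-values whose window holds a match, so that the letters can be read beside their values. Of these 5 genes, 0 passed the adjusted threshold with edgeR on all 9 libraries. Each line runs 5′ to 3′ on the strand of the gene, with the matches of these motifs, as read on either strand, in capitals.
*Ddit4*, chr10:59951771-59952020, minus strand: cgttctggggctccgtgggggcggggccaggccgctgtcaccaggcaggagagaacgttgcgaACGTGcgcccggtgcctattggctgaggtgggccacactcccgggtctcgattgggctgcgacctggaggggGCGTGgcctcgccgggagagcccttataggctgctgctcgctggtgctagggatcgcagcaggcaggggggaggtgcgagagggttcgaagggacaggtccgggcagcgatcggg
*Egln3*, chr12:54203875-54204124, minus strand: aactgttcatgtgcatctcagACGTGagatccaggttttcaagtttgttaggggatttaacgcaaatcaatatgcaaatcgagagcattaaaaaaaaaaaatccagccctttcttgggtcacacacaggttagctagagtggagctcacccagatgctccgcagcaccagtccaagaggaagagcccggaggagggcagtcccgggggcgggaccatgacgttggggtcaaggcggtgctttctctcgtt
*Hk2*, chr6:82774455-82774704, minus strand: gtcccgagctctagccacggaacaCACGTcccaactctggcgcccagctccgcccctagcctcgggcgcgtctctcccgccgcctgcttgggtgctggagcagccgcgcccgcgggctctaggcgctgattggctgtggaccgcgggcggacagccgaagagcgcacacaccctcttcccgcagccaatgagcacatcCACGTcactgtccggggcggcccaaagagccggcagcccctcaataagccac
*Pfkp*, chr13:6648772-6649021, minus strand: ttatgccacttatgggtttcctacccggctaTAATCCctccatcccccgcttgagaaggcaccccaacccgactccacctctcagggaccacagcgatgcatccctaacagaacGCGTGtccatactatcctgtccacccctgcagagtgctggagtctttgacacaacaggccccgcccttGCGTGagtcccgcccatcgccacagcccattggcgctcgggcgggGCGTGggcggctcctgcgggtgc
*Adm*, chr7:110627407-110627656, plus strand: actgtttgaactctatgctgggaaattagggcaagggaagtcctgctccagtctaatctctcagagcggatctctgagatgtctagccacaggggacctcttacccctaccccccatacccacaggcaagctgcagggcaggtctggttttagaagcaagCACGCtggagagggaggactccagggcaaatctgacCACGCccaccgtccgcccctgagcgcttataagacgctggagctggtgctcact
*Ddit4* holds ACGTG at -187 and GCGTG at -115, counted from the start. *Egln3* holds 1 ACGTG at -229, and *Hk2* holds ACGTG on the other strand at -226 and -52. *Pfkp* holds TAATCC at -219 and GCGTG at -136, -68 and -23 in the stretch printed. *Adm* holds GCGTG on the other strand at -90 and -54.

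Which of these genes responded to each CRX protein was asked with edgeR's quasi-likelihood test on counts. Of the 36 genes, 32 passed a filter on low values, which asks for a mean above 2 FPKM (fragments scaled to gene length and library size) in at least 1 condition. *Aldoc*, *Pfkfb4*, *Car9* and *Ankrd37* did not. At an adjusted p under 0.05 (Benjamini-Hochberg over 10100 genes), 0 of the 32 were called with eutherian CRX against control, where 0.604% of all genes tested were called. The count was also 0 with metatherian CRX against control, where 0.0297% of all genes were called, and 0 between the orthologues, where 0% were called. Without the replicate number as a block, 0 of the 10100 genes were called in each comparison, where 61, 3 and 0 were called with it. The smallest adjusted p among the 32 genes was 0.497, 0.0881 and 0.309 in the 3 comparisons.

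At an unadjusted p under 0.05, eutherian CRX against control gave 1 gene higher (3.125% of 32, against 2.23% of all genes) and 2 lower (6.25%, against 6.34%). Metatherian CRX against control gave 1 gene higher (3.125%, against 9.04%) and 3 lower (9.375%, against 10.5%). Metatherian against eutherian CRX gave 2 genes higher (6.25%, against 7.41%) and 1 lower (3.125%, against 4.13%). The shares of the 32 genes lay near or under those of all genes in every case. DESeq2 on the same counts called 0 of the 32 at an adjusted p under 0.05 with eutherian CRX and between the orthologues, where it called 3.3% and 3.14% of all genes, and 1 gene, *Ddit4*, with metatherian CRX against control, where it called 9.94%. Groups of 3 libraries that did not overlap were found for 1 gene higher and 1 lower with eutherian CRX, against 6.21% and 7.8% of all genes. They were found for 1 gene higher and 2 lower with metatherian CRX, against 11% and 12.3%, and between the orthologues for 2 higher and 1 lower, against 6.23% and 5.3%. The median log2 fold change of the 32 genes was -0.05 with eutherian CRX and -0.08 with metatherian CRX against control, beside 0.001 and -0.008 over all genes. Both were above 0 without control replicate 3 (0.142 and 0.051) and without the libraries numbered 3 (0.093 and 0.061), and the second also without metatherian CRX replicate 3 (0.055). Between the orthologues it was 0.02, beside -0.005, and it fell below 0 with upper-quartile scaling (-0.011) and without eutherian CRX replicate 3 (-0.088), metatherian CRX replicate 1 (-0.049) or 2 (-0.044). The 15 tested genes of glucose entry and the glycolytic steps had medians of 0.02 and 0.16 against control, with 10 and 8 of the 15 above 0. Their medians in the metatherian CRX libraries (0.16, 0.142 and -0.015 from the control mean) lay within those of the controls (-0.221, -0.049 and 0.271). The 13 tested HIF targets outside glycolysis and lactate had medians of -0.13 and -0.25. Of the 13, 10 were below 0 in each comparison, beside 5015 and 5176 of all 10100 genes. The eutherian value of the 13 rests on replicate 3, where their median difference from the control mean was -0.60, beside -0.03 and -0.02 in replicates 1 and 2. Without the libraries numbered 3 it was 0.04, with 5 of the 13 below 0, whereas with metatherian CRX it was -0.17, with 11 below 0. The median of the 15 with eutherian CRX was -0.04 without eutherian CRX replicate 3 and 0.204 without control replicate 3. Both comparisons share the control libraries.

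**Figure D1:**
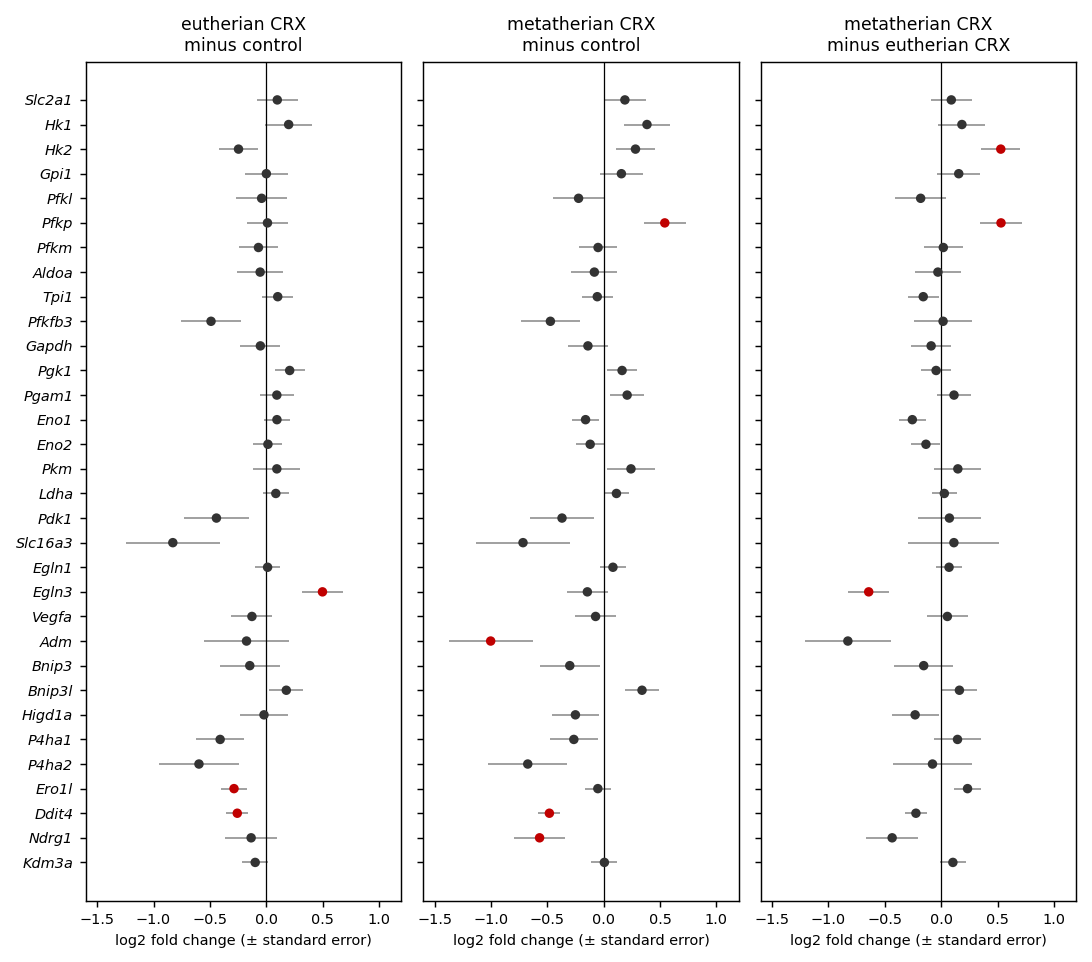
Log2 fold change of each of the 32 tested genes (rows) in the 3 comparisons (panels), with bars of 1 standard error from edgeR. Red points have an unadjusted p under 0.05; 0 of the 32 had an adjusted p under 0.05 in any panel.

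Glucose enters through the transporter encoded by *Slc2a1* (GLUT1) and is trapped by hexokinases, the constitutive *Hk1* and the inducible *Hk2*. *Hk2*, on chromosome 6 from 82725025 to 82774454 of GRCm38, had 49.5, 55.8 and 69.7 CPM in control replicates 1, 2 and 3, 43.7, 38.9 and 66.8 CPM with eutherian CRX and 73.1, 68.9 and 67.2 CPM with metatherian CRX. The means were 58.4 ± 10.3, 49.8 ± 14.9 and 69.8 ± 3.02 CPM (SD, n = 3). All 3 metatherian CRX libraries lay above all 3 eutherian CRX libraries, but eutherian CRX replicate 3 lay just under the lowest of them, and control replicate 3 lay among them. The log2 fold change of metatherian against eutherian CRX was 0.53 (standard error 0.17), with an unadjusted p of 0.0185 and an adjusted p of 0.347 from edgeR. *Slc2a1*, the gene of this step with the most fragments per length, had 102, 116 and 156 CPM in control, 108, 106 and 192 CPM with eutherian CRX and 124, 156 and 137 CPM with metatherian CRX. Its highest value was that of eutherian CRX replicate 3, and the 3 conditions overlapped. *Hk1* ranged from 140 to 279 CPM, again with eutherian CRX replicate 3 highest.

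In the upper steps, *Gpi1* turns glucose 6-phosphate into fructose 6-phosphate, the 3 phosphofructokinase subunits *Pfkl*, *Pfkp* and *Pfkm* commit it to glycolysis, aldolase (*Aldoa*, *Aldoc*) cleaves the sugar and *Tpi1* interconverts the products. *Pfkp*, on chromosome 13 from 6579874 to 6648789, had 34.2, 36.9 and 62.3 CPM in control, 38.5, 38.1 and 55.9 CPM with eutherian CRX and 60.6, 65.8 and 59.8 CPM with metatherian CRX. The means were 44.5 ± 15.5, 44.2 ± 10.1 and 62 ± 3.29 CPM (SD, n = 3). Replicates 1 and 2 of control and eutherian CRX lay together at the low end, whereas replicate 3 of both lay near the metatherian CRX libraries. Against control, metatherian CRX had a log2 fold change of 0.54 (standard error 0.19) with an unadjusted p of 0.0232 and an adjusted p of 0.191 (edgeR), and the groups overlapped. Against eutherian CRX it was 0.53 (standard error 0.18) with an unadjusted p of 0.0248 and an adjusted p of 0.359 (edgeR), and the groups did not overlap. The exons of *Pfkp* share 285 bases with *Pitrm1* on the opposite strand, and since the strand setting of the counting is not stated, their reads cannot be told apart there. The 2 other subunits lay between 75.1 and 153 CPM (*Pfkl*) and between 36.7 and 52.7 CPM (*Pfkm*). *Pfkm*, *Tpi1* and, in the lower steps, *Gapdh* also share 100, 292 and 445 exon bases with genes on the opposite strand. *Aldoa*, the gene of these steps with the highest FPKM, had 394, 451 and 562 CPM in control, 438, 436 and 479 CPM with eutherian CRX and 466, 524 and 337 CPM with metatherian CRX, and the conditions overlapped. *Aldoc*, which is best known from brain, was below the filter at 0.136 to 1.03 CPM. *Gpi1* ranged from 147 to 249 CPM and *Tpi1* from 161 to 256 CPM.

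Fructose 2,6-bisphosphate, the strongest activator of phosphofructokinase, is made and removed by the enzymes of *Pfkfb3* and *Pfkfb4*. *Pfkfb3* had 47, 39.5 and 61.7 CPM in control, 40.1, 42.4 and 24 CPM with eutherian CRX and 41, 32.8 and 33.8 CPM with metatherian CRX. Control replicate 3 was the highest library and eutherian CRX replicate 3 the lowest. The adjusted p-values were 0.7 and 0.361 (edgeR) against control. *Pfkfb4* lay between 5.09 and 8.89 CPM and was not tested.

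**Figure D2:**
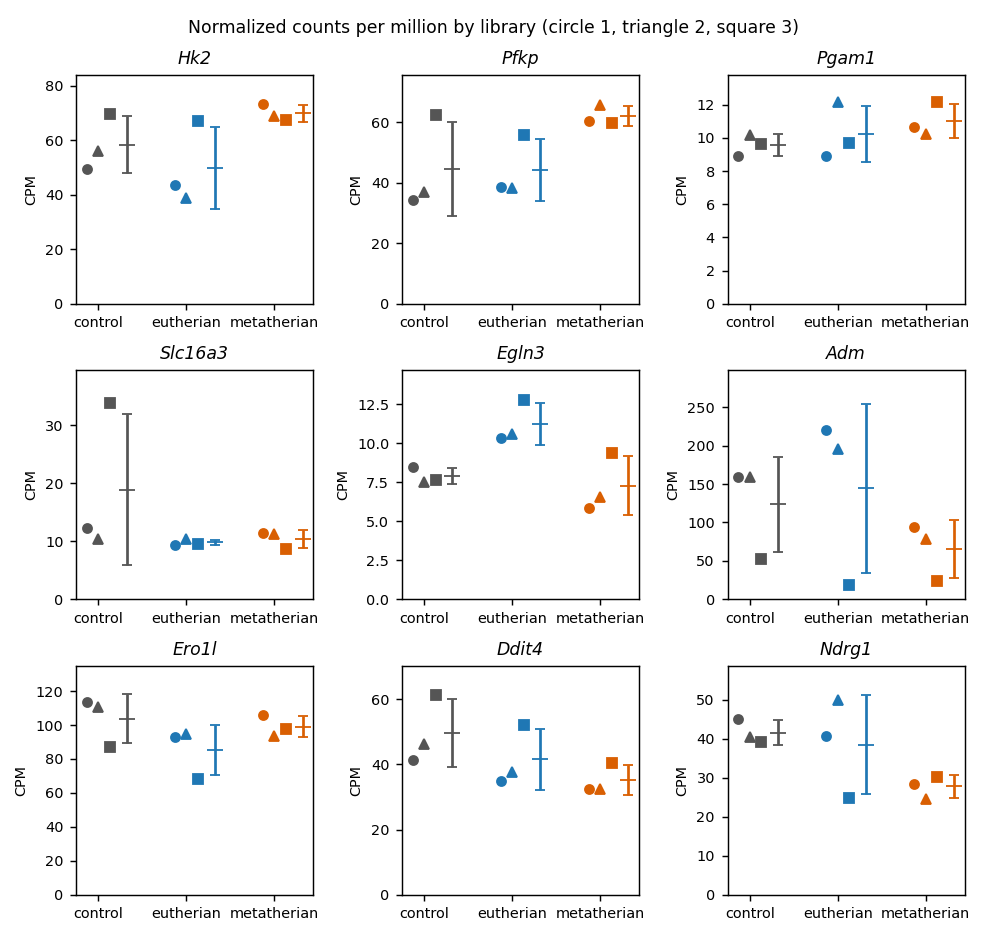
Normalized CPM (vertical axes, from 0) of the 9 genes with an unadjusted p under 0.05 or with groups that did not overlap in at least 1 comparison. Each symbol is 1 library (circle, triangle and square for replicates 1, 2 and 3), and the bar beside each condition gives the mean ± SD of 3 libraries; the squares lie away from the circle and triangle in *Adm* in all 3 conditions.

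The lower steps run from *Gapdh* over *Pgk1*, *Pgam1* and the enolases *Eno1* and *Eno2* to pyruvate kinase, *Pkm*. *Pgam1*, on chromosome 19 from 41911871 to 41918665, had 8.88, 10.2 and 9.63 CPM in control, 8.91, 12.2 and 9.68 CPM with eutherian CRX and 10.7, 10.2 and 12.2 CPM with metatherian CRX. The metatherian CRX libraries lay above all controls, but only just, with 10.24 CPM in metatherian CRX replicate 2 beside 10.19 CPM in control replicate 2. This gave a log2 fold change of 0.21 (standard error 0.15) with an unadjusted p of 0.218 and an adjusted p of 0.495 (edgeR), and it was 0.35 without metatherian CRX replicate 2 and 0.12 without replicate 3. *Pkm*, which had the highest FPKM of all 36 genes, had 617, 750.3 and 923 CPM in control, 744, 696 and 998 CPM with eutherian CRX and 900.4, 1028 and 734 CPM with metatherian CRX. The conditions overlapped, and replicate 3 was the highest library in control and eutherian CRX and the lowest with metatherian CRX. *Gapdh* lay between 24.1 and 39.9 CPM, *Pgk1* between 13.0 and 22.0 CPM, *Eno1* between 97.4 and 152 CPM and *Eno2* between 14.2 and 27.0 CPM. The smallest adjusted p among the 6 genes of these steps was 0.762 with eutherian CRX, 0.495 with metatherian CRX and 0.469 between the orthologues (edgeR).

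At the branch of pyruvate, *Ldha* makes lactate, *Pdk1* holds pyruvate back from the mitochondria by inhibiting pyruvate dehydrogenase, and *Slc16a3* (MCT4) exports lactate. *Ldha* had 499, 496 and 501 CPM in control, 545, 578 and 471 CPM with eutherian CRX and 586, 569 and 471 CPM with metatherian CRX. The controls lay within a narrow band, and the conditions overlapped. *Slc16a3*, on chromosome 11 from 120948484 to 120959000, had 12.3, 10.4 and 33.9 CPM in control, 9.42, 10.3 and 9.6 CPM with eutherian CRX and 11.5, 11.2 and 8.58 CPM with metatherian CRX. Its mean of 18.9 ± 13 CPM in control (SD, n = 3) rests on control replicate 3. All eutherian CRX libraries lay below all controls, with a log2 fold change of -0.83 (standard error 0.41), an unadjusted p of 0.0868 and an adjusted p of 0.679 (edgeR), and without control replicate 3 the log2 fold change was -0.14, without eutherian CRX replicate 3 -0.55. The exons of *Slc16a3* overlap 222 bases of *Csnk1d* on the opposite strand, where reads cannot be told apart either. The summed muscle markers were also highest in control replicate 3, through *Acta1* at 97.9 CPM. *Des* was highest in eutherian CRX replicate 3 instead, at 18.6 CPM beside 11.9 CPM in control replicate 3. The part of these markers in the *Slc16a3* value was not tested. *Pdk1* ranged from 14.7 CPM in eutherian CRX replicate 3 to 39.1 CPM in control replicate 3.

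*Egln1* and *Egln3* encode HIF prolyl hydroxylases, the oxygen sensors of the pathway, and *Egln3* is itself a HIF target. *Egln3*, on chromosome 12 from 54178981 to 54203874, had 8.48, 7.52 and 7.65 CPM in control, 10.4, 10.6 and 12.8 CPM with eutherian CRX and 5.84, 6.57 and 9.41 CPM with metatherian CRX. The means were 7.88 ± 0.52, 11.2 ± 1.32 and 7.27 ± 1.89 CPM (SD, n = 3). The eutherian CRX libraries lay above all other libraries. Against control, the log2 fold change of eutherian CRX was 0.50 (standard error 0.18) with an unadjusted p of 0.0281 and an adjusted p of 0.497 (edgeR). Metatherian CRX had a log2 fold change of -0.64 (standard error 0.18) against eutherian CRX with an unadjusted p of 0.00938 and an adjusted p of 0.309 (edgeR), whereas metatherian CRX and control overlapped. *Egln1*, the more abundant of the pair by FPKM, had 68.6, 73.1 and 86.9 CPM in control, 73.5, 73 and 83.6 CPM with eutherian CRX and 79.9, 85.4 and 75.4 CPM with metatherian CRX, and all conditions overlapped.

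Of the secreted factors, *Adm* encodes adrenomedullin, a peptide that widens vessels, and *Vegfa* the main growth factor of endothelial cells. *Adm*, on chromosome 7 from 110627669 to 110629819, had 159, 159 and 52.6 CPM in control, 219.9, 196 and 18.2 CPM with eutherian CRX and 94.3, 79 and 23.3 CPM with metatherian CRX. The library numbered 3 was the lowest of each condition, and the 3 conditions overlapped through it, whereas among replicates 1 and 2 metatherian CRX lay below control and eutherian CRX above it. The means were 124 ± 61.3, 145 ± 110.1 and 65.5 ± 37.4 CPM (SD, n = 3). The log2 fold change of metatherian CRX against control was -1.003 (standard error 0.37) with an unadjusted p of 0.032 and an adjusted p of 0.215 (edgeR), and in each of the 3 pairs of the same number the metatherian CRX library was lower. Without control replicate 3 the log2 fold change was -0.60 (edgeR, adjusted p = 0.592). *Vegfa* ranged from 61.7 to 137 CPM, and its lowest and highest libraries were both from eutherian CRX, replicates 1 and 3.

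*Bnip3* and *Bnip3l* mark mitochondria for removal, and *Higd1a* encodes a small protein of the inner mitochondrial membrane. *Bnip3l*, the gene of the 3 with the highest FPKM, had 95.8, 70.1 and 69.2 CPM in control, 84.3, 96.2 and 82.5 CPM with eutherian CRX and 107, 83.6 and 105 CPM with metatherian CRX, and metatherian CRX lay above the control of its number in 3 of 3 cases. The groups overlapped, and the adjusted p was 0.279 (edgeR). *Bnip3* ranged from 10.7 to 26.8 CPM and *Higd1a* from 17.6 to 43.6 CPM, both with eutherian CRX replicate 3 lowest and replicate 2 highest. *Car9*, a carbonic anhydrase of the cell surface that regulates pH, was not tested and had 3.63, 3.7 and 1.81 CPM in control, 4.1, 4.61 and 1.02 CPM with eutherian CRX and 1.84, 2.38 and 1.15 CPM with metatherian CRX. Like *Adm*, it was lowest in replicate 3 of each condition.

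*P4ha1* and *P4ha2* encode collagen prolyl hydroxylase subunits, and *Ero1l* an oxidase of the endoplasmic reticulum that helps form disulfide bonds. *Ero1l*, on chromosome 14 from 45283087 to 45318572, had 113, 110.5 and 87 CPM in control, 93, 94.5 and 68 CPM with eutherian CRX and 106, 93.7 and 97.5 CPM with metatherian CRX. Replicate 3 was the lowest in control and with eutherian CRX. The log2 fold change of eutherian CRX against control was -0.29 (standard error 0.12) with an unadjusted p of 0.0446 and an adjusted p of 0.57 (edgeR), and the eutherian CRX library was lower in each of the 3 pairs. *P4ha1* had 423, 373 and 456 CPM in control, 375, 379.6 and 213 CPM with eutherian CRX and 404, 339.7 and 313 CPM with metatherian CRX. Its lowest library was eutherian CRX replicate 3. *P4ha2* ranged from 59.7 CPM in eutherian CRX replicate 3 to 207 CPM. The summed fibroblast markers, which include collagen genes, were also lowest in that library, and their part in these values was not tested.

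Among the remaining targets, *Ddit4* encodes an inhibitor of mTORC1, *Ndrg1* a stress-induced protein, *Kdm3a* a histone demethylase and *Ankrd37* an ankyrin repeat protein. *Ddit4*, on chromosome 10 from 59949675 to 59951770, had 41.2, 46.1 and 61.2 CPM in control, 34.8, 37.7 and 52.1 CPM with eutherian CRX and 32.4, 32.5 and 40.4 CPM with metatherian CRX. The means were 49.5 ± 10.4, 41.5 ± 9.26 and 35.1 ± 4.6 CPM (SD, n = 3). All metatherian CRX libraries lay below all controls, and in each number the order was control, eutherian CRX and metatherian CRX from high to low. Against control it had a log2 fold change of -0.48 (standard error 0.10) with metatherian CRX, at an unadjusted p of 0.00184 and an adjusted p of 0.0881 (edgeR). With eutherian CRX it was -0.26 (standard error 0.10), at an unadjusted p of 0.0345 and an adjusted p of 0.529 (edgeR), and the groups overlapped. Between the orthologues it was -0.22 (standard error 0.10) with an unadjusted p of 0.0565 (edgeR). DESeq2 gave *Ddit4* a log2 fold change of -0.47 with metatherian CRX against control and an adjusted p of 0.00149.

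*Ndrg1*, on chromosome 15 from 66929318 to 66969641, had 45.2, 40.3 and 39.3 CPM in control, 40.8, 49.9 and 24.9 CPM with eutherian CRX and 28.5, 24.7 and 30.3 CPM with metatherian CRX. The metatherian CRX libraries lay below all controls, and eutherian CRX replicate 3 lay among them. The log2 fold change of metatherian CRX against control was -0.57 (standard error 0.23) with an unadjusted p of 0.0429 and an adjusted p of 0.239 (edgeR). *Kdm3a* ranged from 51.2 to 81.6 CPM with overlapping conditions. *Ankrd37* was not tested and lay between 1.26 and 4.59 CPM, with replicate 3 highest in each condition.

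**Figure D3:**
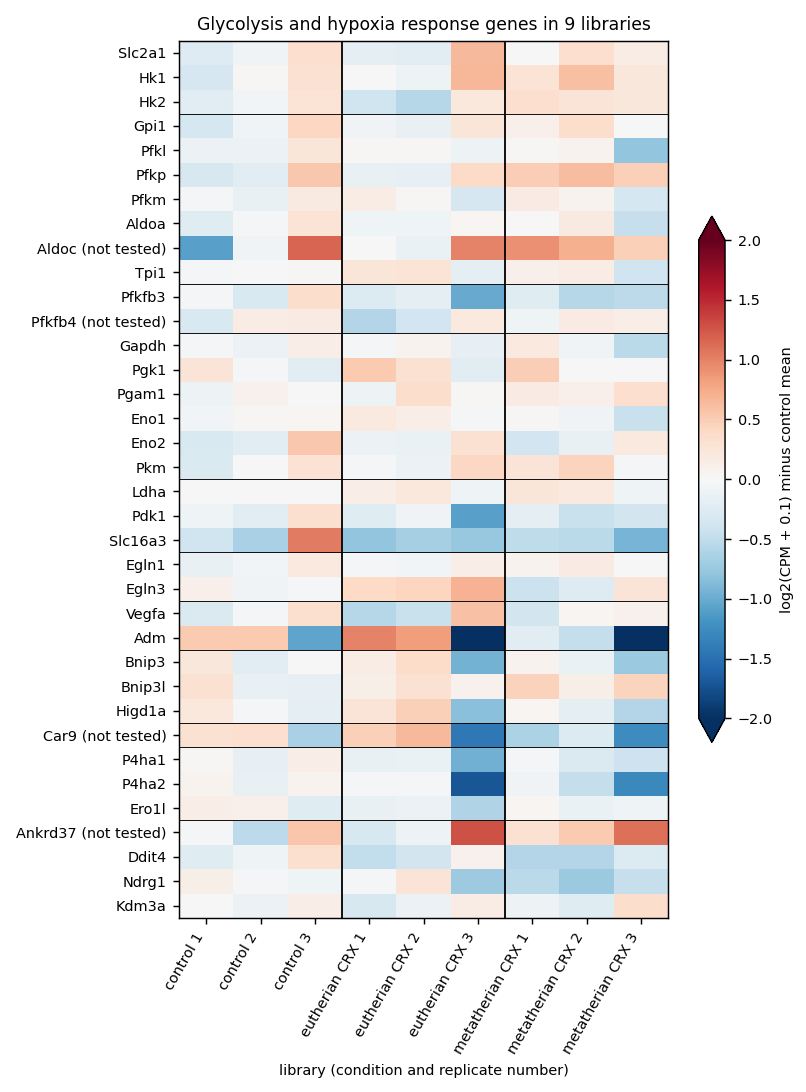
Log2(CPM + 0.1) of all 36 genes (rows, grouped by role) minus the mean of the 3 controls, in the 9 libraries (columns). The columns numbered 3 stand out within each condition, with *Adm* down to the lower end of the colour scale in replicate 3 of both CRX conditions.

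The libraries numbered 3 differed from the others of their condition in a way that varied by gene. *Adm* was lower in replicate 3 than in the mean of replicates 1 and 2 by log2 differences of -1.59 (control), -3.51 (eutherian CRX) and -1.89 (metatherian CRX). *Higd1a*, *Pgk1*, *Ero1l* and the untested *Car9* were also below 0 in all 3 conditions. *Vegfa* was above 0 in all 3, with 0.48, 1.09 and 0.24, as were *Eno2*, *Ddit4*, *Kdm3a*, *Pfkfb4* and *Ankrd37*. Of the 32 tested genes, 25 were above 0 in control, 13 in the eutherian and 8 in the metatherian CRX libraries. The hexokinases, *Slc2a1*, *Gpi1*, *Pfkp*, *Pkm*, *Aldoa* and *Egln1* were above 0 in control and eutherian CRX and below 0 with metatherian CRX. Control replicate 3 was the highest library for 12 of all 36 genes, untested ones included, and eutherian CRX replicate 3 was the lowest for 11. The median range over the 9 libraries was 0.91 on the log2 scale for the 32 genes and 0.69 for all genes tested.

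**Figure D4:**
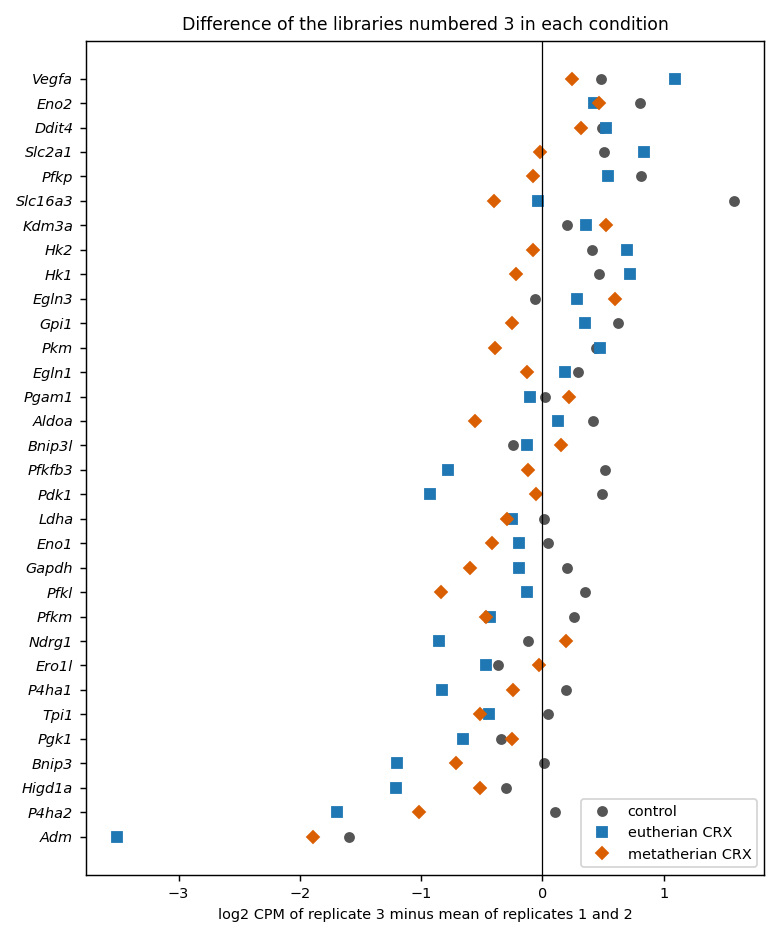
Difference in log2 CPM between replicate 3 and the mean of replicates 1 and 2 (horizontal axis) for the 32 tested genes (rows), in control (circles), eutherian CRX (squares) and metatherian CRX (diamonds). *Adm* lies lowest in all 3 conditions, at -1.59, -3.51 and -1.89.

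Without the 3 libraries numbered 3, which leaves 2 libraries per condition and 10025 genes, 9 of the 32 genes were called with metatherian CRX against control. *Slc2a1*, *Hk1*, *Hk2*, *Gpi1*, *Pfkp* and *Pkm* were called higher (6 genes, 18.75%, against 11% of all genes), and *Adm*, *Ddit4* and *Ndrg1* lower (3 genes, 9.375%, against 11.1%). *Pfkp* had a log2 fold change of 0.83 (adjusted p = 0.00108), *Hk1* of 0.59 (adjusted p = 0.015), *Pkm* of 0.50 (adjusted p = 0.0215) and *Hk2* of 0.43 (adjusted p = 0.0245), all from edgeR. *Gpi1* had 0.44 (edgeR, adjusted p = 0.0255) and *Slc2a1* 0.35 (adjusted p = 0.0438). *Adm* had -0.88 (edgeR, adjusted p = 0.00105), *Ndrg1* -0.69 (adjusted p = 0.0127) and *Ddit4* -0.43 (adjusted p = 0.0147). The 6 genes called higher are among the 15 of glucose entry and glycolysis, where the 9 not called lay between -0.01 and 0.23. The 3 called lower are among the 13 other HIF targets, where the 10 not called lay between -0.37 and 0.22, with *Egln1* at 0.22 and *Bnip3l* at 0.21. Whether these groups differ from each other was not tested.

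In the same libraries, metatherian against eutherian CRX also gave 9 called genes. *Slc2a1*, *Hk1*, *Hk2*, *Pfkp*, *Pkm* and *Vegfa* were higher (6 genes, against 12.7% of all genes), and *Adm*, *Egln3* and *Ndrg1* lower (3 genes, against 9.86%). *Hk2* had a log2 fold change of 0.79 (adjusted p = 0.003 from edgeR), *Pfkp* of 0.72 (adjusted p = 0.00207) and *Adm* of -1.26 (adjusted p = 5e-04). *Egln3* had -0.75 (edgeR, adjusted p = 0.0118) and *Ndrg1* -0.77 (adjusted p = 0.00899). Eutherian CRX against control gave 0 called genes of the 32, where 2.94% of all genes were called. At an unadjusted p under 0.05 (edgeR), 4 of the 32 lay above control (12.5%, against 5.93% of all genes) and 4 below it (12.5%, against 10.2%). Leaving out only eutherian CRX replicate 3, edgeR called *Adm* (log2 fold change -0.97, adjusted p = 0.00731) and *Ddit4* (-0.47, adjusted p = 0.0332) lower with metatherian CRX against control, where 8.83% of all genes were called, and *Adm* lower between the orthologues, where 3.47% were. Leaving out only metatherian CRX replicate 3, edgeR called *Pfkp* higher, with 0.78 (adjusted p = 0.0264) against control and 0.76 (adjusted p = 0.0365) against eutherian CRX, where 4.92% and 1.48% of all genes were called. In these smaller fits the spread rests on fewer libraries. The labels name no batch, and what sets the libraries numbered 3 apart was not tested.

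The rest of the pathway was read from 4 lists of genes outside the 36, with 0 called in any list and comparison at an adjusted p under 0.05 (edgeR). DESeq2 called *Angptl4* lower with eutherian CRX, *Tceb1*, *Car12* and *G6pdx* higher and *Angptl4* and *Cxcl12* lower with metatherian CRX, and *Pdk4* higher between the orthologues. Of all genes, it called 3.3%, 9.94% and 3.14% in these comparisons. Without the libraries numbered 3, edgeR called genes of these lists in all 3 comparisons, named with each list. Of the HIF subunits and regulators, 14 of 16 were tested, and at an unadjusted p under 0.05 there were 0 with eutherian CRX, 1 higher with metatherian CRX (7.143%, against 9.04% of all genes) and 0 between the orthologues. *Hif1a*, an oxygen-regulated subunit, had 498, 397 and 430.4 CPM in control, 446, 454 and 258 CPM with eutherian CRX and 421, 354 and 351 CPM with metatherian CRX, and the conditions overlapped. *Epas1*, another such subunit, was below the filter and not tested. It had 8.46, 10.2 and 6.91 CPM in control, 3.97, 5.55 and 2.745 CPM with eutherian CRX and 5.74, 5.815 and 3.15 CPM with metatherian CRX. The libraries of both CRX conditions lay below all controls, as for 7.8% and 12.3% of the genes tested. *Tceb1*, a subunit of the ligase complex that marks HIF for destruction, had the smallest p of this list against control, with log2 fold changes of 0.26 (adjusted p = 0.59) with eutherian and 0.42 (adjusted p = 0.121) with metatherian CRX (edgeR), and the first was 0.17 without control replicate 3. *Crebbp*, a coactivator of HIF, had the smallest p between the orthologues, at -0.21 (edgeR, adjusted p = 0.572), and at -0.12 without eutherian CRX replicate 3. Without the libraries numbered 3, *Cited2* was called higher and *Arnt* lower with metatherian CRX against control, against 11% and 11.1% of all genes. *Cited2* was also called higher between the orthologues, against 12.7%. Of 26 further HIF targets, 24 were tested, and the counts at an unadjusted p under 0.05 (edgeR) are given with the share of all genes. With eutherian CRX 4 were lower (16.67%, against 6.34%). With metatherian CRX 3 were higher (12.5%, against 9.04%) and 4 lower (16.67%, against 10.5%), and between the orthologues 2 were higher (8.333%, against 7.41%) and 1 lower (4.167%, against 4.13%). *Car12*, a carbonic anhydrase related to *Car9*, had 24.9, 25.5 and 30.4 CPM in control, 53.6, 46.6 and 33 CPM with eutherian CRX and 79.1, 109.9 and 39 CPM with metatherian CRX. Metatherian CRX lay above all controls, by a log2 fold change of 1.38 ± 0.32 (standard error), and the adjusted p was 0.108 (edgeR). It was called without metatherian CRX replicate 3 (1.75, adjusted p = 0.0298 from edgeR), without the libraries numbered 3 (1.90, adjusted p = 0.000531) and by DESeq2 (1.39, adjusted p = 0.000436). *Angptl4*, which encodes an inhibitor of lipoprotein lipase, had the smallest p of the list with eutherian CRX, at -0.67 (edgeR, adjusted p = 0.267), and *Bhlhe40*, a transcriptional repressor, between the orthologues, at 0.47 (adjusted p = 0.391). Without eutherian CRX replicate 3, *Bhlhe40* was called at 0.73 (edgeR, adjusted p = 0.024). Of the 23 genes of this list tested without the libraries numbered 3, *Car12* was called higher and *Angptl4* and *Bhlhe40* lower with eutherian CRX, where 2.94% of all genes were called. With metatherian CRX *Car12* was called higher and *Angptl4*, *Cxcl12*, *Lox* and *Loxl2* lower, against 11% and 11.1% of all genes. Between the orthologues *Bhlhe40*, *Car12* and *Hmox1* were called higher and *Cxcl12*, *Kdm4b* and *Lox* lower, against 12.7% and 9.86%.

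Of 20 other isoforms and transporters of glycolysis, 8 were tested, and an unadjusted p under 0.05 was found for 1 lower with eutherian CRX (12.5%, against 6.34% of all genes), 2 higher with metatherian CRX (25%, against 9.04%) and 2 higher between the orthologues (25%, against 7.41%). *Pdk4*, a second inhibitor of pyruvate dehydrogenase, had 25.6, 22.8 and 21.8 CPM in control, 20.4, 20.6 and 15.7 CPM with eutherian CRX and 33.4, 27.5 and 27.3 CPM with metatherian CRX. It was the 1 gene of the 36 and the 4 lists for which each eutherian CRX library lay below and each metatherian CRX library above the control with its number. The share of all genes with this pattern was not counted, and it is not established that libraries of a number belong together. For *Pdk4*, the log2 fold change between the orthologues was 0.64 (standard error 0.12) with an unadjusted p of 0.000915 and an adjusted p of 0.267 (edgeR). *Slc16a1*, a lactate and pyruvate transporter, had 0.57 with metatherian CRX against control (edgeR, adjusted p = 0.18), and 0.32 without control replicate 3. Without the libraries numbered 3, *Slc16a1* (0.36, adjusted p = 0.0134 from edgeR) and *Ldhb* were called higher with metatherian CRX against control, and *Pdk4* (0.57, adjusted p = 0.0111) between the orthologues. Of all genes, 11% and 12.7% were called higher there. All 7 genes of the pentose phosphate pathway were tested, with 1 higher for metatherian CRX against control (14.29%, against 9.04%) and 1 lower between the orthologues (14.29%, against 4.13%) at that unadjusted threshold. In lists of 8 and 7 genes, 1 gene makes up 12.5% and 14.29%. *G6pdx*, its first enzyme, had 0.32 with metatherian CRX (edgeR, adjusted p = 0.121), *Taldo1* 0.30 with eutherian CRX (adjusted p = 0.673) and *Rpia* -0.45 between the orthologues (adjusted p = 0.321). Without eutherian CRX replicate 3, *Taldo1* had 0.11. Without the libraries numbered 3, *G6pdx* (0.37, adjusted p = 0.0116 from edgeR) and *Tkt* were called higher and *Rpia* lower with metatherian CRX against control, against 11% and 11.1% of all genes. Between the orthologues *Tkt* was then called higher and *Rpia* lower (-0.57, adjusted p = 0.0123 from edgeR), against 12.7% and 9.86%.

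Levels between genes were compared per length, as mean FPKM over the 9 libraries, with the exon length on the gene's own chromosome. This leaves out exon copies on sequences other than that chromosome, which are listed for *Eno1* and *Hk2*, and reads counted there were not taken out. *Pkm* was the highest at 280 FPKM and *Ldha* next at 271.5 FPKM, and their ranges over libraries (210.3 to 351 and 244 to 304 FPKM) overlapped. *Aldoa* at 140 FPKM and *Tpi1* at 135 FPKM followed, again with overlapping ranges. Enzymes of the same unbranched path stood much lower, with *Gapdh* at 15.0 FPKM, *Pgk1* at 9.25 FPKM and *Pgam1* at 5.61 FPKM. In transcripts of GENCODE M21, 80.3% of the 75-base windows of *Gapdh* were found also in transcripts of other annotated genes, 121 of them. The shares were 67.5% for *Pgk1*, 65.4% for *Eno1*, 46.3% for *Bnip3*, 40.6% for *Pgam1*, 34.3% for *Higd1a* and 19.6% for *Pkm*. Of the other genes whose values in every library were given for their p or for groups that did not overlap, *Pfkp* had 16.6%, shared with *Pitrm1*, *Ndrg1* 12.1%, and *Hk2*, *Ddit4*, *Adm*, *Egln3*, *Ero1l* and *Slc16a3* 0%. How reads with several alignments were counted is not stated, so that the levels of the genes with high shares are uncertain, and the effect of the copies on them was not tested.

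**Figure D5:**
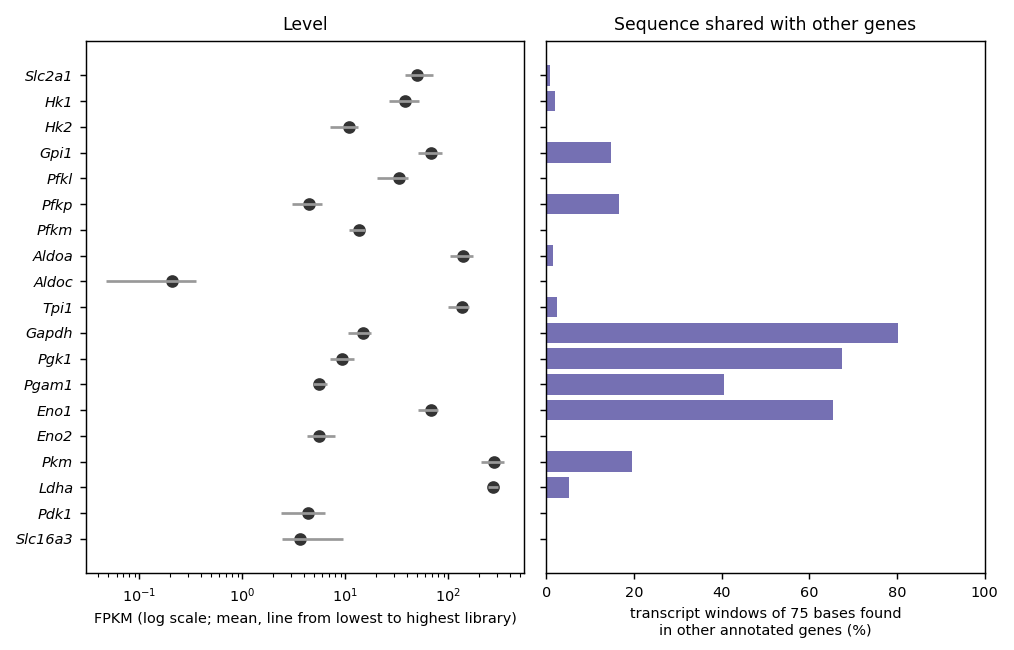
Left, mean FPKM (points, log scale) with the lowest and highest of the 9 libraries (lines) for the 19 genes of glucose entry, glycolysis and the pyruvate branch. Right, share of the 75-base windows of each gene's transcript that were found in transcripts of other annotated genes; *Gapdh* has the largest share at 80.3% and a level of 15.0 FPKM, beside 280 FPKM for *Pkm* at 19.6%.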

How the data were processed

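RNA-seq of 9 MEF libraries was used, 3 per condition, grouped by sample titles. The authors aligned 75 bp paired reads with STAR to mm10 (GRCm38) and deposited raw counts per gene from featureCounts, with replicates not pooled and no normalization. Which annotation was used, whether strand was read and how multi-mapping reads were handled are not given in the sources used here. Each gene's merged exon length came with the counts and was used for the filter. Levels of the 36 genes used the length on the main chromosome only.

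The deposited counts were fitted in R 4.3.3 with edgeR 4.0.16 (limma 3.58.1). Genes were tested if filterByExpr kept them (14599) and their mean FPKM, from raw library sizes and exon lengths, was above 2 in at least 1 condition (10100). The quasi-likelihood test used TMM factors and blocked on replicate number, p-values were adjusted over 10100 genes (Benjamini-Hochberg), and a gene was called below an adjusted p of 0.05. The study's own test, DESeq2 on FPKM, was replaced because the deposited table holds counts, and DESeq2 1.42.0 on counts was an alternative. Log2 CPM used a prior count of 2, and a standard error is the size of the log2 fold change over the square root of F. The tests were tested on simulated data.

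The block follows the study's remark on paired preparation, which does not name the pairs. Deviations from the condition mean correlated above 0.1 in 8 of 9 pairs of libraries that share a number, with a lowest value of 0.0034, and in 5 of 18 other pairs, which does not establish that libraries of a number belong together.

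The 36 genes, the role groups, the marker lists (fibroblast, epithelial, endothelial, macrophage and leukocyte, skeletal muscle, erythroid) and the 4 lists of other pathway genes were chosen with earlier results of these data known. Values in every library are given for genes with an unadjusted p under 0.05 or groups that do not overlap in any comparison, and for the gene of highest FPKM in each role group. Other lists are represented by the gene of smallest p in each comparison. *Hif1a* and *Gapdh* among others were described after their values were seen. Promoters were taken from RefSeq (GRCm38.p6), where *Ero1l* is listed as *Ero1a*, and transcripts from GENCODE M21. The 17 alternatives were no block, 2 other scalings, DESeq2, 2 other filters, only the 6 libraries compared, each of 9 libraries left out, and the 3 libraries numbered 3 left out.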

Additional observations from a re-analysis of the deposited data

How the results depend on the processing

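Called members, at an adjusted p under 0.05, were 0 in each comparison, and eutherian CRX against control stayed at 0 higher and 0 lower in all 17 alternatives. For metatherian CRX against control, 1 gene was called lower by DESeq2 (*Ddit4*) and 1 with only the 6 libraries compared (*Adm*, log2 fold change -0.97, adjusted p = 0.029 from edgeR), where 3.97% of all genes were called. Without the libraries numbered 3, 6 were called higher and 3 lower, and with single libraries left out, 0 to 1 higher and 0 to 2 lower. Between the orthologues, 6 were called higher and 3 lower without the libraries numbered 3, and 0 to 1 higher and 0 to 1 lower with single libraries left out. The libraries whose removal gave calls were eutherian CRX replicate 3 (2 lower against control, 1 lower between the orthologues) and metatherian CRX replicate 3 (1 higher in both comparisons). The cause was not tested.

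The median log2 fold change of the 32 genes with eutherian CRX was 0.093 without the libraries numbered 3 and -0.115 to 0.142 with single libraries left out. With metatherian CRX it was 0.061 and -0.156 to 0.055. Between the orthologues it was -0.088 to 0.064 with single libraries left out. All 3 ranges include 0. The sign turned without control replicate 3 in both comparisons with control (0.142 and 0.051), without metatherian CRX replicate 3 against control (0.055), and between the orthologues without eutherian CRX replicate 3 (-0.088), metatherian CRX replicate 1 (-0.049) or 2 (-0.044) and with upper-quartile scaling (-0.011).

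Without the replicate block, 0 of the 32 genes were called, as with it, and their medians were -0.024, -0.088 and 0.017 in the 3 comparisons. Over all genes tested, the 61 and 3 calls with eutherian and metatherian CRX against control were lost without the pairing, which left 0. Counts at an unadjusted p under 0.05 moved by over 1.5 times in 46 cases and stayed within that in 56. Over all genes tested, DESeq2 called 3.3%, 9.94% and 3.14% in the 3 comparisons, beside 0.604%, 0.0297% and 0% by edgeR. The 24 log2 fold changes followed for single named genes kept their sign in all alternatives, but not their size. These 24 were chosen in the same data for a small p or for groups that did not overlap, which favours a stable sign. Not all others kept theirs. With eutherian CRX against control, *Adm* ran from -0.471 to 0.379 and *Slc2a1* from -0.109 to 0.256 over the alternatives. Leaving out 1 library moved *Adm* (to -0.60), *Slc16a1* (to 0.32), *Tceb1* (to 0.17) and *Slc16a3* (to -0.14) by over 1.5 times without control replicate 3. It did so for *Taldo1* (to 0.11), *Crebbp* (to -0.12), *Bhlhe40* (to 0.73) and *Slc16a3* (to -0.55) without eutherian CRX replicate 3, and for *Pgam1* without metatherian CRX replicate 2 (to 0.35) or 3 (to 0.12). With 3 libraries per condition, a p that misses the threshold does not show that levels were equal.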
